A study of Rattus norvegicus with 4 samples.

Results

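Tagln, Des and Vim encode 3 proteins of the smooth muscle cytoskeleton, and their mRNAs were measured here in a conduit and a resistance artery. The genes were chosen by Ensembl identifier, ENSRNOG00000017628 for Tagln, ENSRNOG00000019810 for Des and ENSRNOG00000018087 for Vim, and are 3 of the 26313 identifiers in the data. RNA-Seq was done on the thoracic aorta (AO) and on the small arteries of the mesenteric arcade (MA), with 2 samples of each. The vessels were whole walls from adult male Sprague-Dawley rats, for which no treatment or genetic change is given. The superior mesenteric artery was left out of MA, and MA was cleaned of fat. A single rat gave both AO1 and MA1, and AO2 and MA2 are from 2 further rats.

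Transgelin (Tagln, also called SM22 alpha) is a calponin-family protein that binds actin filaments and is a standard marker of differentiated smooth muscle. Desmin (Des) and vimentin (Vim) are type III intermediate filament proteins that can assemble into the same filament. Desmin is the muscle member of the pair and ties the contractile apparatus to dense bodies and the membrane, while vimentin is found in smooth muscle, endothelium, fibroblasts and other mesenchymal cells. The relative amount of the 2 proteins is known to differ along the arterial tree, with vimentin prominent in the elastic aorta.

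The files list identifiers only, and 0 of the 47357 genes in the RefSeq table used here (assembly GRCr8) carry an Ensembl identifier, so the symbols rest on the choice of members. The gene lengths behind the values gave a check on them. The length by which the reads of ENSRNOG00000019810 had been divided was 7709 bp, and the RefSeq span of Des is 7719 bp, a difference of -10 bp. Of 23154 protein-coding genes, 11 have a span that close. For ENSRNOG00000018087 the length was 8520 bp against a span of 8486 bp for Vim, and 45 genes are that close. The match was looser for ENSRNOG00000017628, with 5846 bp against 5475 bp for Tagln, a closeness met by 572 genes. The study's methods name mRNA length as the divisor, whereas the lengths solved from the values lie near the spans of whole genes, introns included. If so, every RPKM, rank and ratio between genes given here is per length of gene and not of mRNA, and a level per kilobase of 1 gene cannot be set exactly against that of another. The span of Des shares 276 bp with that of a RefSeq long noncoding RNA (LOC102550477), and reads there could belong to either gene. No overlapping gene is listed for Tagln or Vim.

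The start regions of the 2 intermediate filament genes are shown because the comparison turns on the ratio of their mRNAs. They are taken from RefSeq (GRCr8), plus strand, from 250 bases before to 50 bases after the start of the gene, at chr9:84299376-84299675 for Des and chr17:81577011-81577310 for Vim. Capitals mark every match to 6 motifs searched on both strands, namely the CArG box of serum response factor, the TATA element TATAAA, the E box CANNTG, the GC box GGGCGG, the CCAAT box CCAAT and the AP-1 site TGANTCA.
Des: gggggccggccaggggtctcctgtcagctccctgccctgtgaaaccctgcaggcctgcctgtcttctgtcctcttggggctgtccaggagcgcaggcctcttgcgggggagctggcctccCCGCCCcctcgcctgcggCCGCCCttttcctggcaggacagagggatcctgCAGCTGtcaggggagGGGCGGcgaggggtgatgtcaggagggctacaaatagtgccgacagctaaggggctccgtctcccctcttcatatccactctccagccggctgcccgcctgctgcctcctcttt
Vim: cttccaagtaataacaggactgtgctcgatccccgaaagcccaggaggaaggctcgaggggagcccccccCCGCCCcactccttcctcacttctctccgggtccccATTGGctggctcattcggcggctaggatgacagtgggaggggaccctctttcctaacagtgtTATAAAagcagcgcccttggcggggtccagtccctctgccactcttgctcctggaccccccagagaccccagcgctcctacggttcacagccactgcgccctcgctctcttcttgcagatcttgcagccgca

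The Des region held 3 GC boxes, the nearest starting 64 bases before the start, and 1 E box (CAGCTG) starting 79 bases before it, which does not overlap any of them. The Vim region held a TATA element starting 82 bases before the start, a CCAAT box on the minus strand starting 144 bases before it and 1 GC box starting 180 bases before it. None of these matches was shared in type between the 2 regions except the GC box. Among 33469 regions of the same length, 33.1% held a GC box, 72.1% an E box, 37.5% a CCAAT box and 14.2% a TATA element. Neither region held a CArG box, which was found in 1.64% of all regions, or an AP-1 site, found in 7.33%. These are matches of letters in a short window, and nothing follows from them about binding. The GC content was 67.7% for Des and 62.0% for Vim, against a median of 51.7% over all regions.

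The deposited values are RPKM, a read count per gene corrected for the length of the gene and the size of the library. Solved from the steps of the RPKM, the library sizes ranged from 83311442 to 90305293 reads, and the reads on genes from 72524459 to 82449244 per sample. The share of reads on the 10 identifiers with the most reads lay between 35.9% and 43.7% in AO and between 16.3% and 18.5% in MA, which leaves fewer reads for all other genes in AO. For the comparison, RPKM were therefore scaled by the median-of-ratios method, with factors from 0.789 to 0.897 in AO and from 1.16 to 1.22 in MA. The scaled RPKM were tested as log2(scaled RPKM + 0.5) with limma over the 7203 identifiers that reached an RPKM of 1 in 2 or more samples, a filter that all 3 genes passed. A gene was called where the p adjusted by Benjamini-Hochberg was no higher than 0.05 and the difference exceeded 2-fold.

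By this rule 0 of the 3 genes were called with limma, against 7.71% of all identifiers tested in either direction and 0.93% in the direction of MA. The split of these calls depends on the scaling, with 67 higher in MA and 488 higher in AO here, 170 and 260 with the RPKM as deposited, and 107 and 310 with the total without the 50 highest identifiers as the scale. Limma-voom on the solved reads also called 0 of the 3, against 579 of the 7203 identifiers tested. At an unadjusted p of at most 0.05, limma had 2 of the 3, Tagln and Des, against 25.3% of all identifiers. Limma-voom had 1 at that limit, Des, against 1835 of the 7203 identifiers. The scaled levels of both tissues did not overlap in any of the 3 genes. Tagln and Des had both MA samples above both AO samples, as did 21.9% of all identifiers tested, and Vim had both AO samples above both MA samples, as did 34.4%.

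**Figure D1:**
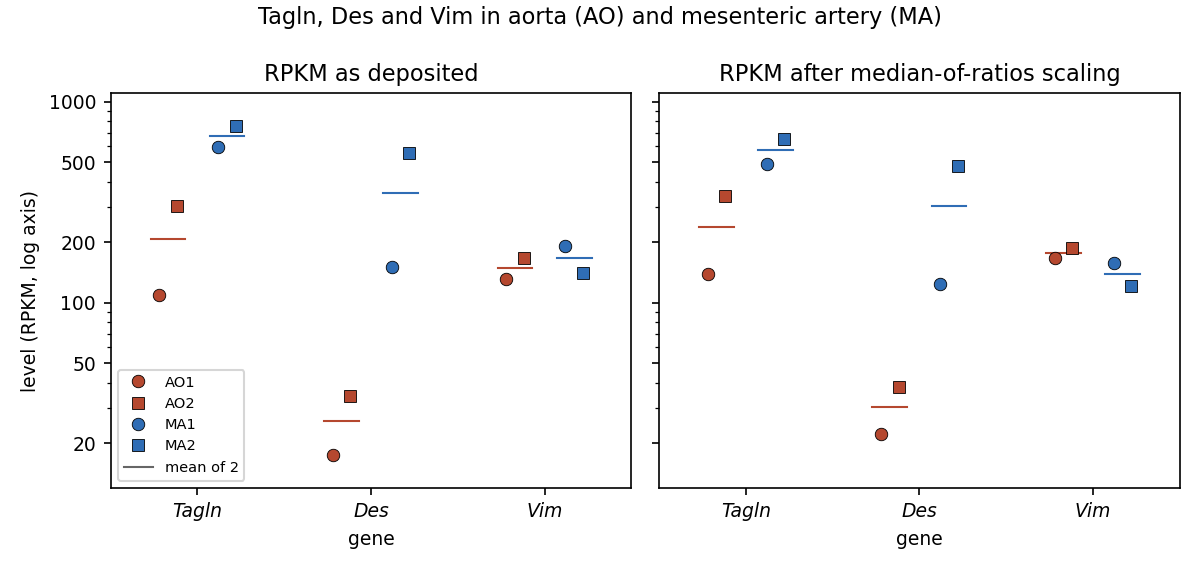
Level of Tagln, Des and Vim in the 2 AO and the 2 MA samples, as RPKM on a log axis, as deposited (left) and after scaling (right). Points are samples and lines are means of 2; Des lies between 17.6 and 34.4 RPKM in AO and between 151 and 556 in MA, while Vim stays between 132 and 192 in all 4 samples.

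Des, the muscle intermediate filament gene, showed the largest difference of the 3 between the arteries. Its deposited level was 17.6 RPKM in AO1 and 34.4 in AO2, and 151 in MA1 and 556 in MA2. Both MA samples lay above both AO samples, as for 58.2% of all identifiers tested on the deposited RPKM. The gap between the tissues was wider than that between the AO samples, but MA2 also lay far above MA1. Des had 12219 solved reads in AO1 and 23136 in AO2, as compared with 96691 in MA1 and 381253 in MA2. The 95% exact Poisson interval around the lowest of these was 12003 to 12438 reads, or 1.78% to each side, so counting error is small beside the differences between samples. It covers counting error only.

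On the log2(scaled RPKM + 0.5) scale the difference of Des, MA minus AO, was 3.04 (standard error 0.74), which is 8.21-fold with a 95% interval from 2.07-fold to 32.6-fold. The adjusted p from limma was 0.0865, above the limit. The interval is that of the single gene and is not adjusted for the number tested. Only 6 of the 7203 identifiers had a larger difference in the direction of MA, and 4 of those 6 were called. The standard error of Des was large beside the median of 0.19 over all identifiers, and 1.29% of identifiers had a larger one. In bulk samples such as these, fewer cells of a type and less RNA per cell cannot be told apart. For the metabolic mRNAs high in AO, the paper raised unequal contamination by fat as a concern. It judged that this did not appear to be so. The bearing of fat on the level of Des was not tested.

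The 2 MA samples differed from each other in Des by 1.96 on the log2 scale, or 3.89-fold after scaling, MA2 being the higher. Over all identifiers tested the SD of the log2 difference between MA2 and MA1 was 0.53, so Des lay outside 2 SD (1.06), as did 415 identifiers in all. The study also applied a limit of 2 SD, but to the ratio of normalized expression between MA1 and MA2 and not to log2 differences. Whether Des would pass that filter was not tested. The paper reports some skeletal myogenic factors at a very low level, in MA2 only. It holds that these likely reflect slight contamination with skeletal muscle. Whether this bears on the level of Des in MA2 was not tested. Between AO2 and AO1 the difference of Des was 0.77, inside 2 SD of that pair (0.92). In the rat that gave both tissues, Des was 5.45-fold higher in MA1 than in AO1 after scaling, a single pair with no replicate. Without MA replicate 2 the log2 difference was 2.05, and without MA replicate 1 it was 4.01, the lone MA sample being assumed to vary like the AO samples. With 3 samples limma called 0 identifiers in either case, so these fits give values and say nothing about the call of Des.

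**Figure D2:**
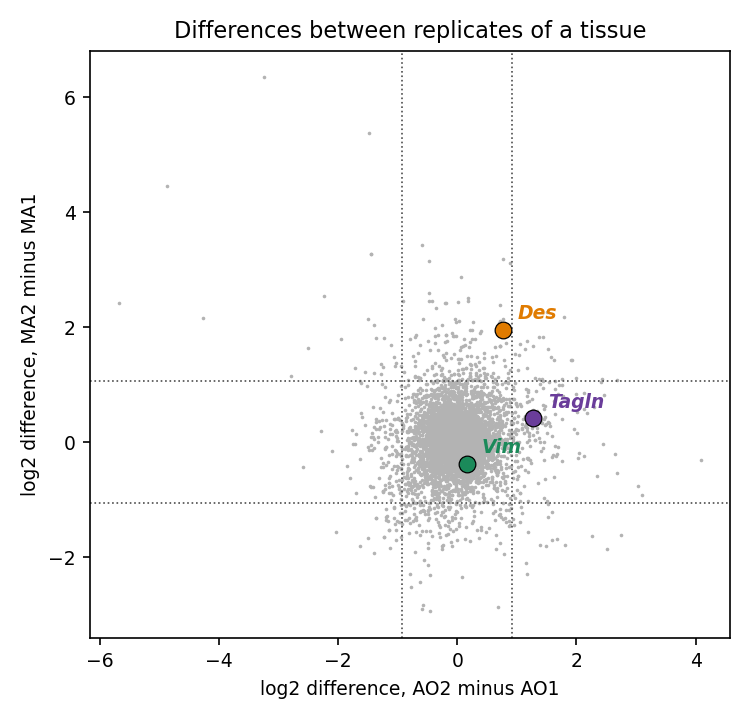
Log2 difference between the 2 AO samples (x axis) and between the 2 MA samples (y axis) for the 7203 identifiers tested (grey) and the 3 genes; dotted lines mark 2 SD over all identifiers. Des lies above the upper line at 1.96 on the MA axis, Tagln lies beyond the line at 1.28 on the AO axis, and Vim lies near the centre.

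Tagln, the actin-binding smooth muscle marker, was abundant in both arteries. It had 110 RPKM in AO1 and 303 in AO2, and 597 in MA1 and 760 in MA2. Both MA samples again lay above both AO samples, as for 58.2% of all identifiers tested on the deposited RPKM. The wider gap between replicates was in AO. The mean was 207 ± 137 RPKM (SD, n = 2) in AO and 679 ± 115 (SD, n = 2) in MA. Among all 26313 identifiers, Tagln ranked 264 and 148 by RPKM in AO1 and AO2, and 92 and 64 in MA1 and MA2.

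On the log2 scale the difference of Tagln, MA minus AO, was 1.38 (standard error 0.50), or 2.61-fold with a 95% interval from 1.03-fold to 6.61-fold. The adjusted p from limma was 0.188, above the limit. A larger difference in the direction of MA was found for 152 identifiers, of which 38 were called. AO2 exceeded AO1 in Tagln by 1.28 on the log2 scale, outside 2 SD of the AO pair, and 2.37% of identifiers differed more between these samples. MA2 exceeded MA1 by only 0.42. Without AO replicate 1 the log2 difference between the tissues was 0.74, and without AO replicate 2 it was 2.02. Either AO sample thus moved the fold difference of Tagln by more than 1.5 times. In the rat that gave both tissues, Tagln was 3.50-fold higher in MA1 than in AO1 after scaling.

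Vim, the mesenchymal intermediate filament gene, showed the smallest difference of the 3. It had 132 RPKM in AO1 and 167 in AO2, and 192 in MA1 and 141 in MA2, so that as deposited the tissues overlapped. The mean was 150 ± 25 RPKM (SD, n = 2) in AO and 166 ± 37 (SD, n = 2) in MA. After scaling, the AO levels were 167 and 187 and the MA levels 158 and 121, in the order of the sample numbers, with both AO samples above both MA samples. As deposited, 58.2% of all identifiers had both MA samples above both AO samples, among them 2 of the 3 genes, Tagln and Des.

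On the log2 scale the difference of Vim, MA minus AO, was -0.35 (standard error 0.23), with a 95% interval from -0.97 to 0.27 and an adjusted p of 0.433 from limma. The direction of Vim depended on the scaling, since with the RPKM as deposited its difference was 0.15. The median over all identifiers was then 0.37 against -0.05 after scaling, and relative to that median Vim lay at -0.23. With the total without the 50 highest identifiers as the scale it was -0.01, and with quantile normalization -0.05. Without MA replicate 2 it was -0.17 and without MA replicate 1 -0.55. A larger absolute difference than that of Vim was found for 42.8% of identifiers. In the rat that gave both tissues it was -0.084.

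**Figure D3:**
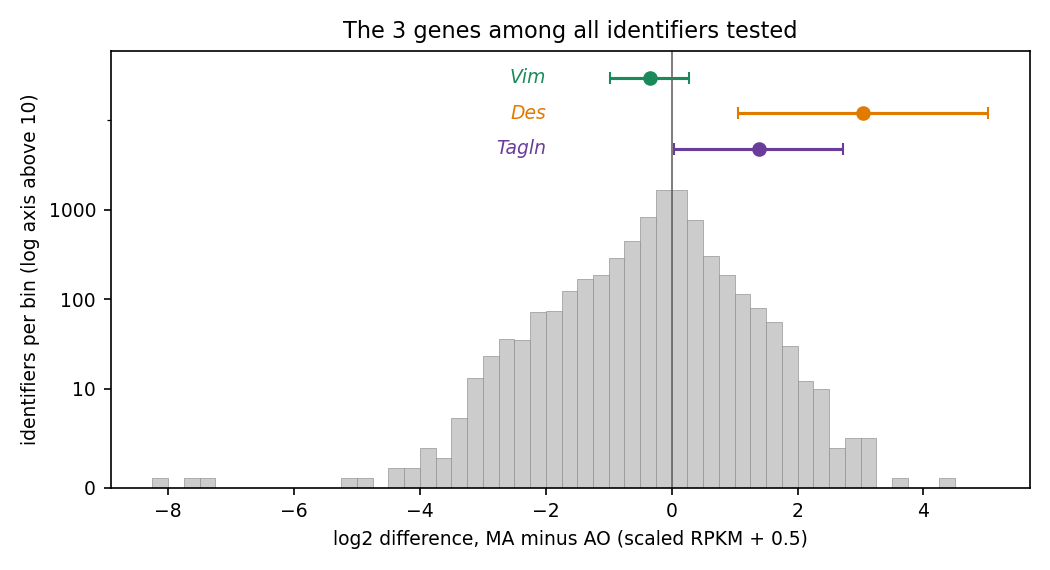
Distribution of the log2 difference, MA minus AO, over the 7203 identifiers tested (bars, 0.25 wide, count axis logarithmic above 10), with the 3 genes drawn above it as points with their 95% intervals. Des lies at 3.04 near the right end of the distribution, Tagln at 1.38 and Vim at -0.35 with an interval that crosses 0.

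The ratio of Des to Vim within a sample is left as it is by any scaling that applies 1 factor to a whole sample. The ratio of RPKM was 0.133 in AO1 and 0.205 in AO2, and 0.783 in MA1 and 3.95 in MA2. Both MA samples therefore had more Des relative to Vim than either AO sample, and Des exceeded Vim in MA2 only. In solved reads, without regard to length, the ratio was 0.120 and 0.186 in the AO samples and 0.708 and 3.58 in the MA samples, which gave the same order.

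The mean log2 ratio of Des to Vim was -2.60 ± 0.44 (SD, n = 2) in AO and 0.82 ± 1.65 (SD, n = 2) in MA, a difference of 3.41, or 10.6-fold. The lowest MA ratio was 3.82-fold above the highest AO ratio, while the MA samples differed 5.05-fold from each other and the AO samples 1.54-fold. An exact permutation test gave a two-sided p of 0.333, which is the smallest that 2 samples against 2 can give. In the rat that gave both tissues, the ratio was 5.88-fold higher in MA1 than in AO1. Without MA replicate 2 the difference of the log2 ratios was 2.24, against 3.41 with all samples. Of the 2 genes, Des differed by 3.04 and Vim by -0.35 between the tissues on the log2(scaled RPKM + 0.5) scale, so most of the difference in the ratio lay in Des.

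**Figure D4:**
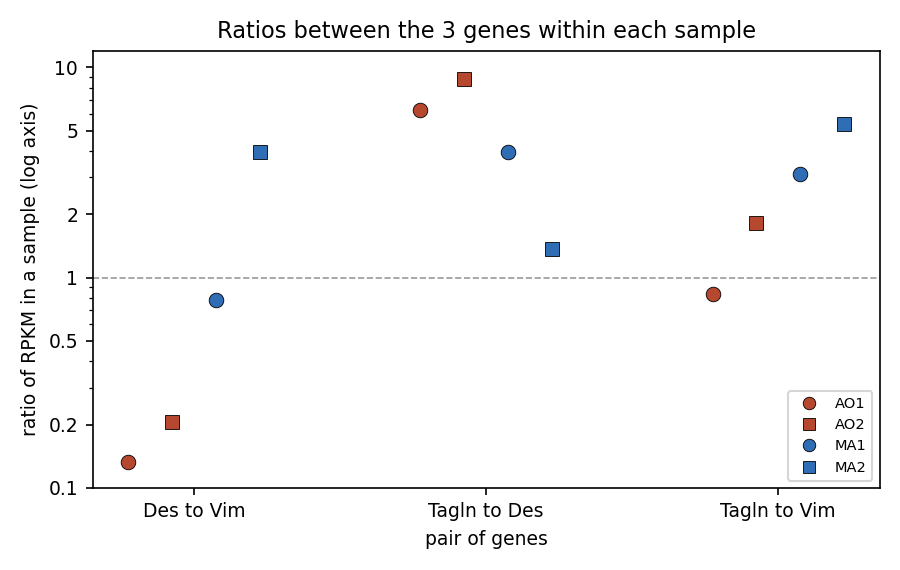
Ratio of RPKM between pairs of the 3 genes within each of the 4 samples, on a log axis with a dashed line at 1. For Des to Vim the AO samples lie at 0.133 and 0.205 and the MA samples at 0.783 and 3.95; for each of the 3 pairs the AO and MA samples do not overlap.

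Tagln relative to Des went the other way. The ratio of Tagln to Des was 6.26 in AO1 and 8.83 in AO2, and 3.97 in MA1 and 1.37 in MA2. Both MA samples lay below both AO samples, with MA1 1.58-fold below the nearer AO sample. The difference in mean log2 ratio was -1.68, again with an exact permutation p of 0.333, the smallest possible. Without MA replicate 2 it was -0.91. In MA2 the reads of both genes were close to equal, at 395341 for Tagln and 381253 for Des.

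The ratio of Tagln to Vim was 0.834 in AO1 and 1.81 in AO2, and 3.11 in MA1 and 5.41 in MA2. The lower MA ratio was 1.71-fold above the higher AO ratio, while the AO samples differed 2.17-fold from each other. The difference in mean log2 ratio was 1.74 (exact permutation p = 0.333, the smallest possible). The difference was 1.90 for MA1 against AO1, from 1 rat, and 1.58 for MA2 against AO2, from different rats.

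The order of the 3 genes by RPKM thus changed from sample to sample. In AO1 it was Vim, Tagln and Des, with Vim and Tagln close together. In AO2 and MA1 it was Tagln, Vim and Des, and in MA1 Des approached Vim. In MA2 it was Tagln, Des and Vim. By rank among all 26313 identifiers, Des moved most, with ranks of 924 in AO1 and 602 in AO2 but of 249 in MA1 and 84 in MA2, whereas Vim had ranks between 213 and 262 in all 4 samples. Neighbours in these orders were not always apart by more than their spread. In AO the levels of Tagln spanned those of Vim, and in MA the lower level of Des lay between the levels of Vim. Tagln, Des and Vim together still took a small part of each library, with the largest share, 0.538% of the reads on genes, for Tagln in MA2.

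The scaled levels of Tagln and Des had the same order of samples, AO1, AO2, MA1 and MA2 from low to high, an order shared by 9.11% of all identifiers tested. For Vim the order was AO2, AO1, MA1 and MA2 from high to low, which 6.72% of identifiers shared. Likeness of pattern was measured as the Euclidean distance between log2 values of the 4 samples, each gene centred on its own mean. The values were not scaled by their spread. The distance therefore depends on the size of the differences between samples and not only on their order. The distance between Tagln and Des was 2.01, about that between Tagln and Vim (1.99), and Des and Vim were 3.79 apart. The identifier nearest to Des was ENSRNOG00000047483, at a distance of 0.40 and with 0.452 and 0.701 RPKM in the AO samples and 5.63 and 24.8 in the MA samples. It was the only one within 0.5 of Des. The nearest to Tagln was ENSRNOG00000016701 at 0.21, among 33 within 0.5, and the nearest to Vim was ENSRNOG00000004361 at 0.03, among 2316. Few identifiers thus lay near Des and many near Vim, whose values varied the least of the 3. The limit of 0.5 served only for this description, and the 3 nearest identifiers have no symbol in the tables used.

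**Figure D5:**
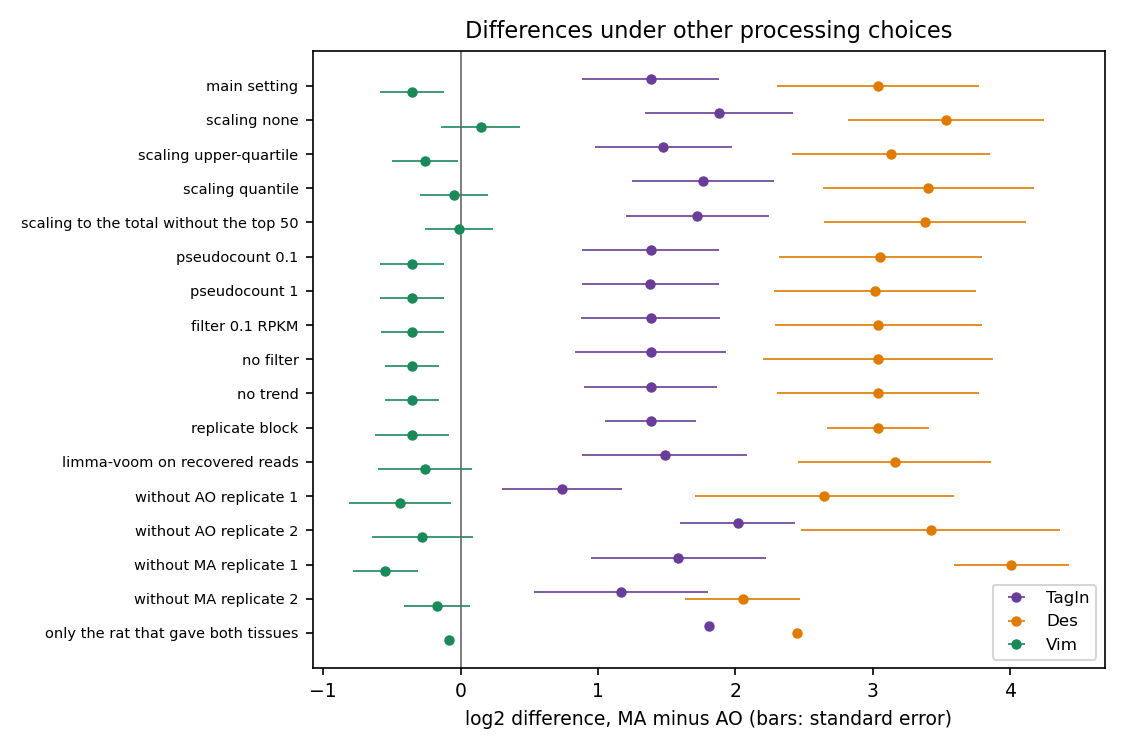
Log2 difference, MA minus AO, of the 3 genes under each processing choice tried, with standard errors as bars (none for the single rat). Des lies between 2.05 and 4.01 and Tagln between 0.74 and 2.02 under the choices with a test, whereas Vim crosses 0 and lies at 0.15 with the RPKM as deposited.

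Genes for the other proteins of the contractile apparatus, and markers of endothelium, fat, fibroblasts and other cells of the vessel wall, were not analysed here, since no table pairs their identifiers with symbols. The cell makeup of the samples was therefore not tested beside these levels. The paper lists some contractile genes by symbol. In its values Myh11, Acta2, Actg2 and the beta-actin gene Actb were higher in both MA samples than in both AO samples. Of these, the paper lists only Actg2 as differentially expressed. With the RPKM as deposited, 58.2% of all identifiers tested had both MA samples above both AO samples. Myh11, Acta2, Actg2 and Actb were also higher in MA2 than in MA1, as Des and Tagln were. Its values for the nonmuscle myosin genes Myh9 and Myh10 overlapped between the tissues, with Myh9 at a very low level in all of the samples. Tagln, a marker of smooth muscle, and Des, the muscle intermediate filament gene, were present in all 4 samples.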

How the data were processed

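RNA-Seq libraries of rat aorta (AO, n = 2) and mesenteric artery (MA, n = 2) were analysed. Reads had been aligned with TopHat to the Ensembl rat genome and counted per gene, and the authors deposited 1 list of RPKM per sample, given to 7 decimals. The reads, the library sizes and the lengths were solved here from the steps of these RPKM, assuming whole numbers and taking the smallest length that fits, with Python 3.11.15 and numpy 2.4.6. All 20747 identifiers above 0 came out whole. The solving and the test were tested on simulated data.

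RPKM were scaled by median-of-ratios factors, taken as log2(scaled RPKM + 0.5) and tested with limma 3.58.1 in R 4.3.3 (lmFit, eBayes with a trend, no block) over 7203 identifiers, in place of the study's negative binomial test on reads. P values were adjusted over all identifiers tested. Ratios within a sample used the deposited RPKM and exact permutation tests (two-sided). A p measures the spread between these samples only. The alternatives were the scaling, the pseudocount, the filter, the trend, a replicate block, limma-voom, and leaving out each sample. The members, lists and tests were chosen with earlier results of these data known. The genes to be named were the 3 members and the identifier nearest to each in pattern. The promoter sequence of Tagln and the lists of other genes and markers were not used here.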

Additional observations from a re-analysis of the deposited data

How the results depend on the processing

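Tagln and Des kept a higher level in MA under all 15 other settings with a test. The adjusted p of Tagln ranged from 0.0870 to 0.569 and that of Des from 0.0377 to 0.354. Des passed the limits only in the fit with a replicate block on the sample number, at a difference of 3.04 (adjusted p = 0.0377 from limma). Only number 1 marks a shared rat, so the numbers were not taken to pair the samples. The deviations of same-numbered samples had a correlation of 0.018 over all identifiers, a value that cannot speak for Des alone. The block changed no other call among the 3 genes and left the ratios as they were. Vim reversed with the RPKM as deposited, to 0.15, and in the rat that gave both tissues it was -0.084. In that rat the difference of the log2 Tagln to Des ratio was -0.66. The cause was not tested. Leaving out each sample in turn gave 0.74 to 2.02 for Tagln, 2.05 to 4.01 for Des and -0.55 to -0.17 for Vim. For the ratios it gave 2.24 to 4.58 (Des to Vim), -2.44 to -0.91 (Tagln to Des) and 1.18 to 2.30 (Tagln to Vim). The count of genes past the limits was 555, against 368 with a filter of 0.1 RPKM, 0 without a filter (3434 at an unadjusted p of at most 0.05) and 0 with any sample left out, where fewer samples were tested (1017 to 1685 at an unadjusted p of at most 0.05). Levels per coding length were not run, since no protein lengths were used. With 2 samples a tissue, the intervals above set the limit, not the depth.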
